A study of Mus musculus with 37 samples.

Results

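Bone marrow-derived macrophages (BMDMs) of wild-type (WT) mice were compared between 24 and 48 h after Kdo2-lipid A (KLA), a defined part of bacterial lipopolysaccharide that activates Toll-like receptor 4 (TLR4). The comparison rests on 2 polyA RNA-seq libraries, labelled WT KLA24h and WT KLA48h, of the 8 RNA-seq libraries and 37 samples in the series. All 24016 genes of the deposited table were considered, and 10487 of them, which reached 100 scaled reads in any of the 4 WT libraries, were analyzed. The other 13529 genes were too low. The cells were bone marrow cells of male C57BL/6J mice, 6 to 9 weeks old, grown in M-CSF for 6 days before KLA was added. The study calls the WT mice littermates in one place and bought C57BL/6J animals in another, and how many mice gave cells to a library is not given in the sources used here. The same times in Arntl-/- BMDMs, labelled BmalKO, formed a second pair of libraries that shares none with the WT pair but differs from it by the Arntl deletion. Arntl, which encodes the clock factor Bmal1, lay between 32.3 and 38.7 scaled FPKM in the 4 WT libraries and between 11.3 and 20.2 in the 4 BmalKO libraries, so the genotypes did not overlap, though reads of the gene remained.

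In macrophages, TLR4 signals through MyD88 to NF-kB, which drives cytokine and chemokine genes, and through TRIF to IRF3, which drives interferon beta. Secreted interferon acts back on the same cells through the factor ISGF3, which binds the interferon-stimulated response element in the promoters of antiviral genes. Feedback inhibitors then limit the NF-kB arm, and macrophages kept in M-CSF can still pass through the cell cycle, whose replication genes are driven by E2F factors and whose mitotic genes carry a cell cycle genes homology region (CHR) bound by the DREAM and MuvB complexes.

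Each condition had 1 library, so no difference has a replicate check and no p-value is given. Levels are FPKM (fragments per kb of exon, scaled here by the authors to 10000000 reads) divided by a size factor, and a gene was counted as higher or lower at a difference of at least 1.5-fold. The 24 and 48 h WT libraries held 10685710 and 9191164 reads on genes, and the 8 libraries between 8587560 and 27036783. The counting gave both ends of a fragment and up to 3 copies at a position, and in the WT library at 48 h 54.0% of the genes with 1 to 12 reads had a multiple of 3 reads, against 39.5% at 24 h. One fragment may therefore stand for as many as 6 reads, and the 95% counting intervals given with ratios use the reads divided by 6. They cover counting error only, not the spread between mice or cultures. In bulk RNA, more cells of a type and more RNA per cell cannot be told apart.

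From 24 to 48 h, 863 genes (8.23% of the genes analyzed) were higher and 1018 (9.71%) were lower in WT cells, while 8606 stayed within 1.5-fold. The median log2 change of all genes analyzed was 0.02, with the 5th and 95th percentiles at -0.88 and 0.75. At 2-fold, 245 genes were higher and 404 lower, and at 4-fold, 30 and 42. With the values as deposited, without size factors, the median shifted to -0.09 and the counts to 621 higher and 1343 lower. The spread was widest where reads were few, since the SD of the log2 change fell from 1.03 in the tenth of genes with the fewest reads to 0.29 in the tenth with the most. Of the genes that were higher, 520 had a counting interval above 1, and of those that were lower, 590 had one below 1.

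**Figure D1:**
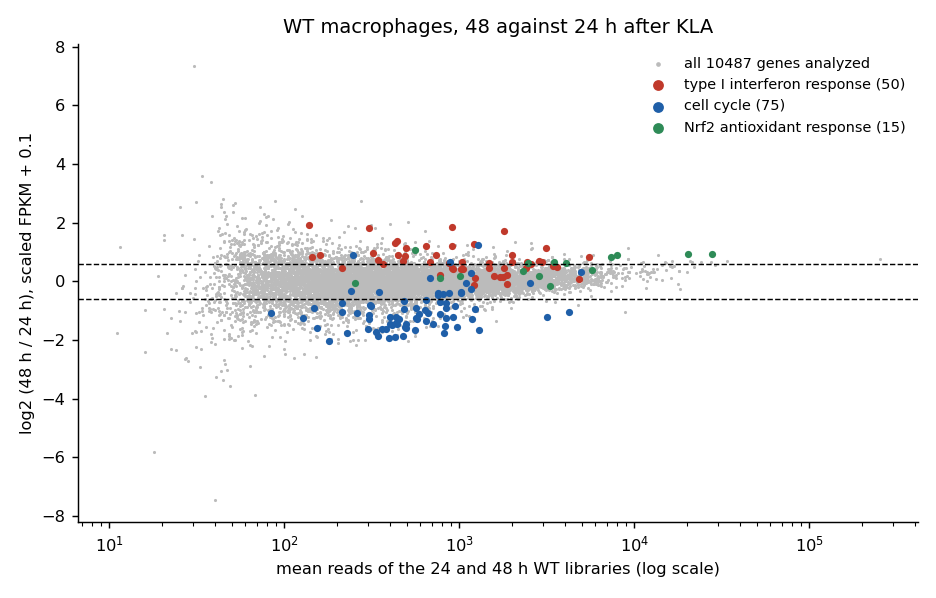
Log2 change of scaled FPKM from 24 to 48 h in WT macrophages (vertical axis) against the mean reads of both libraries (horizontal axis, log scale) for the 10487 genes analyzed, 1 dot a gene, with 3 gene lists in color and dashed lines at 1.5-fold. Interferon response and Nrf2 genes lie mostly above 0 and cell cycle genes mostly below the lower line, and the grey cloud widens where reads are few.

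Of the 24 gene lists, the cell cycle had the most genes that were lower. Of the 75 listed cell cycle genes, all analyzed, 58 were lower at 48 than at 24 h and 3 were higher, and their median log2 change was -1.13. All 30 mitosis genes were lower, by log2 -1.05 to -1.92 and a median of -1.45. Of the 30 DNA replication genes, 23 were lower and none was higher, with a median of -0.91. The 15 G1 cyclins, E2F factors and inhibitors were divided, with 5 lower and 3 higher. With a correction for expression level the counts of the whole list were again 3 and 58, and with the values as deposited 2 and 58. The lists and the comparison were chosen with earlier results of these data known.

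The printed stretches come from the promoters of the mitosis and replication genes with the largest decrease that hold the motif. RefSeq promoter windows (GRCm38.p6, 250 bases before to 50 after a start site) were at hand for 8462 of the 10487 genes. The CHR sequence TTTGAA, searched on both strands, was in a window of 18 of 25 mitosis genes (72%), of 3 of 25 replication genes (12%) and of 14.6% of all genes analyzed with a window, and in 17.9% of all 32851 windows. An E2F site (TTTGGCGC or TTTCCCGC, both strands) was in a window of 9 of 25 replication genes (36%), of none of 25 mitosis genes, of 3.68% of the genes analyzed and in 1.56% of all windows. Among the genes at least 1.5-fold lower, 21.5% had the CHR sequence and 8.20% an E2F site, and among those at least 1.5-fold higher 13.5% and 1.45%. Mitosis genes with and without the CHR sequence had median log2 changes of -1.49 and -1.57. Replication genes with and without an E2F site had -0.90 and -0.93. A match describes the letters of the window and is not evidence of binding. Capitals mark the CHR sequence in the first 4 stretches and the E2F site in the last 3.
Kif2c, chr4:117178844-117178901, minus strand: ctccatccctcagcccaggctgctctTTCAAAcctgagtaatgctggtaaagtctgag
Ndc80, chr17:71526811-71526840, minus strand: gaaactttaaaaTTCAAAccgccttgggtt
Aurka, chr2:172370521-172370550, minus strand: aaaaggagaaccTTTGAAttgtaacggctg
Cenpa, chr5:30666890-30666919, plus strand: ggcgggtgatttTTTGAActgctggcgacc
Cdc6, chr11:98907987-98908046, plus strand: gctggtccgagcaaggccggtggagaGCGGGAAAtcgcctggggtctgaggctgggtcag
Pola1, chrX:93632260-93632319, minus strand: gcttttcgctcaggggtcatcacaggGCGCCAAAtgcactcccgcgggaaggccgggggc
Rfc3, chr5:151651190-151651219, minus strand: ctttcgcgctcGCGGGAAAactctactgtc

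Kif11 (mm9 chromosome 19, 37450893 to 37496349), the kinesin that pushes the spindle poles apart, showed scaled FPKM values of 176, 169, 165 and 48.8 over the WT course (0, 6, 24 and 48 h), from 1324 reads at 24 h and 312 at 48 h. The first 3 times lay close together and the last stood apart, 3.38-fold lower than at 24 h (interval 2.49 to 4.67). Kif2c, a kinesin that takes microtubules apart at kinetochores, was at 134, 135, 140 and 36.8, which was 3.80-fold lower at 48 than at 24 h (2.41 to 6.25). The mitotic kinase Aurka was at 203, 246, 248 and 68.0, and the centromere histone Cenpa at 200, 241, 253 and 69.9. Top2a, the topoisomerase that untangles replicated chromosomes, went from 544 at 24 h to 234 at 48 h, and Mki67, the proliferation marker Ki-67, from 363 to 175. In each of these 6 genes the 48 h library was below the 3 others.

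Replication genes were already lower at 24 h, with a median log2 difference from 0 h of -0.84 at 24 h and -1.69 at 48 h, where mitosis genes had -0.08 and -1.55. Rrm2, the regulatory subunit of ribonucleotide reductase, was at 815, 596, 493 and 201 at 0, 6, 24 and 48 h, and the licensing factor Mcm2 at 377, 259, 152 and 98.1. Cdc6, which loads the replicative helicase, was at 90.8, 77.1, 48.8 and 14.4, with 369 reads at 24 h and 87 at 48 h. Prim1, the DNA primase, had the largest decrease of the list, from 118 to 29.1 or 4.06-fold (2.03 to 9.05), after 137 and 153 at 0 and 6 h. Pcna, the sliding clamp, had a log2 change of -0.04 and E2f1 one of -0.05. The whole list had a median log2 difference from 0 h of -0.37 at 24 h and -1.54 at 48 h.

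The 3 listed genes that were higher act before S phase. Ccnd1, cyclin D1, was at 699 and 568 at 0 and 6 h, 140 at 24 h and 328 at 48 h, so it was 2.34-fold higher than at 24 h (1.91 to 2.88) and still below 0 h. Its exons share 818 bases with those of Oraov1 on the other strand, which the counting on both strands cannot separate. Myc, a growth regulator, went from 50.2 to 92.8 and Ccnd2, cyclin D2, from 80.7 to 129, which did not pass 1.5-fold with the values as deposited. The cell cycle inhibitor Cdkn1a was at 1568 and 1962 (log2 change 0.32).

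**Figure D2:**
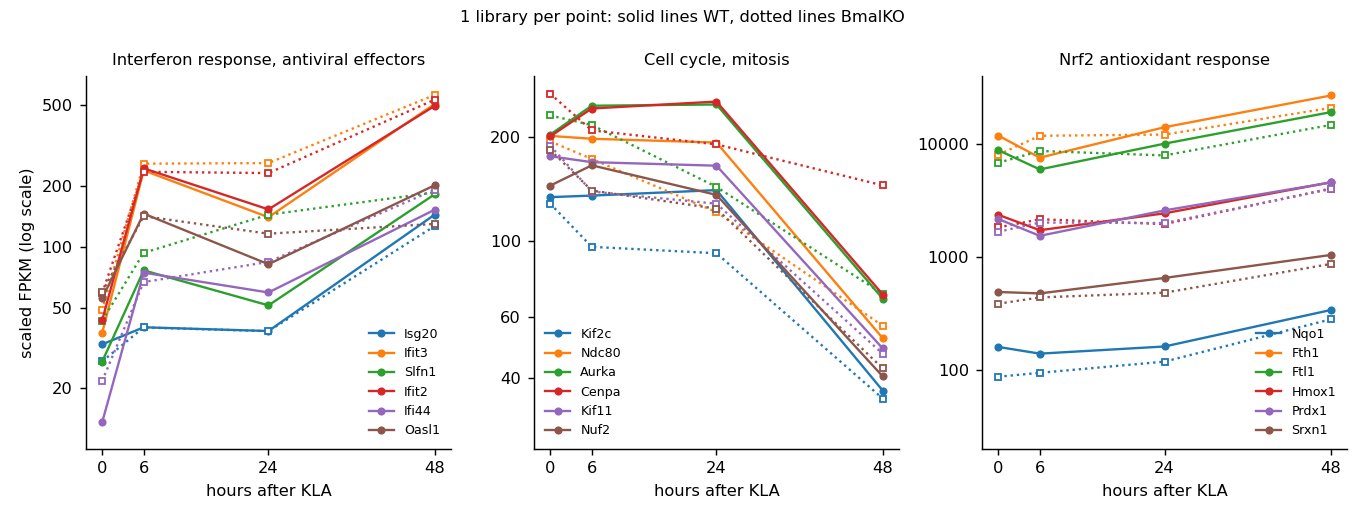
Scaled FPKM (vertical axes, log scale) at 0, 6, 24 and 48 h after KLA for 6 antiviral effectors of the interferon response, 6 mitosis genes and 6 Nrf2 targets, named by the size of their change. Each point is 1 library, solid lines are WT and dotted lines BmalKO. In WT cells the antiviral genes are highest at 48 h, after a rise at 6 h and a lower value at 24 h in all but Isg20, which changes little before 48 h, while the mitosis genes are lowest and the Nrf2 targets highest at 48 h.

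Of the 24 lists, that of interferon-stimulated genes had the most genes that were higher. Of 50 genes of the type I interferon response, all analyzed, 30 were higher at 48 than at 24 h and none was lower, and the median log2 change was 0.66. The values as deposited gave 22 higher and none lower. By role, 24 of the 34 antiviral effectors, 5 of the 9 sensors and transcription factors and 1 of the 7 feedback and modifier genes were higher. At 48 h all 50 members were above their 0 h value, and 44 had their highest WT value then. From 6 to 24 h the list went the other way in part, since 31 of the 50 were below their 6 h value at 24 h. Ifnb1, the gene of interferon beta, had 0 reads in all 4 WT libraries, so it was not detected at this depth. Since 1 fragment may stand for as many as 6 reads, a count of 0 does not show that the transcript was absent.

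The interferon-stimulated response element is shown for the 5 listed genes with the largest increase that hold its core. The core GAAANNGAA, searched on both strands in the same promoter windows, was in 19 of 38 interferon response genes with a window (50%), in 16 of 28 antiviral effectors (57.1%), in 8.93% of all genes analyzed with a window and in 8.56% of all windows. Among all genes at least 1.5-fold higher 13.2% held it, and among those lower 9.05%. The median log2 change was 0.67 with the core and 0.59 without it over the whole list, and 0.76 and 0.91 over the antiviral effectors. Capitals mark the core, overlapping copies included.
Ifit3, chr19:34583348-34583408, plus strand: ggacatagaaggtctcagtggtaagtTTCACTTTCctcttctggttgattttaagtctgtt
Ifi44, chr3:151749905-151749939, minus strand: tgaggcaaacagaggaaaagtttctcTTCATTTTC
Ifit1, chr19:34640754-34640814, plus strand: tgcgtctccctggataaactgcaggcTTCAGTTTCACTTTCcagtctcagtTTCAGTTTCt
Isg15, chr4:156200862-156200922, minus strand: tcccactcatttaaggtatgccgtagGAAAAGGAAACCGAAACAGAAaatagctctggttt
Oas3, chr5:120777700-120777760, minus strand: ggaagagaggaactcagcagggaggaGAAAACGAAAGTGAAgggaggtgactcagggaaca

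The IFIT genes, whose products bind viral RNA, lie side by side on chromosome 19. Ifit3 (mm9 34658019 to 34663472) gave 37.4, 238, 140 and 508 scaled FPKM over the WT course, and Ifit2 (34625184 to 34651024) gave 43.2, 244, 153 and 497. Each showed a peak at 6 h, a lower value at 24 h and a second, higher value at 48 h, 3.63-fold (2.80 to 4.77) and 3.25-fold (2.72 to 3.91) above 24 h. Ifit1 followed, at 24.0, 170, 147 and 335. Isg20, an exonuclease that degrades viral RNA, had the largest change of the list, from 38.2 to 144 or 3.77-fold, but from 69 and 207 reads (1.89 to 8.10). It had barely moved earlier, with 32.8 and 39.9 at 0 and 6 h.

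Isg15, a ubiquitin-like modifier, was at 88.4, 339, 287 and 634, and Usp18, the protease that removes it and dampens interferon signaling, at 50.2, 225, 154 and 355. Oas3, a sensor that makes 2-5A, was at 113, 236, 291 and 634. Rsad2, viperin, was at 71.6, 372, 254 and 475, and Mx1, a dynamin-like GTPase, at 35.8, 126, 76.8 and 144. In all 5 the 48 h library was the highest of the 4. The Schlafen gene Slfn1 went from 51.2 to 182, or 3.55-fold (2.25 to 5.75).

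The 9 sensors and transcription factors of the pathway had a median log2 change of 0.61, beside 0.83 for the 34 antiviral effectors, and this difference was not tested. Irf7, the factor that amplifies interferon genes, was at 237, 406, 735 and 1172, a 1.59-fold difference between 24 and 48 h (1.39 to 1.84). Stat2, a part of ISGF3, went from 363 to 567 and the RNA sensor Ddx58 (RIG-I) from 216 to 339. Irf9, the DNA-binding part of ISGF3, had a log2 change of 0.22 and Irf1 one of -0.09. Parp9 and Samd9l were the listed genes with a value below 0, at log2 -0.12 and -0.10. Several members have close paralogs whose reads the counting could split (Ifit, Oas, Slfn and Ifi200 genes), and their single values are uncertain to that extent.

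The interferon-inducible GTPases, which attack the vacuoles of intracellular microbes and respond mainly to interferon gamma, had 3 of 16 members higher (18.8%, against 8.23% of all genes analyzed) and none lower. Their median log2 change was 0.25, and 12 of the 16 were above 0. None of the 8 guanylate-binding proteins passed 1.5-fold in either direction, from -0.55 in Gbp10 to 0.53 in Gbp5, and Gbp2 was at 120 and 109. The 3 that were higher, Tgtp1, Tgtp2 and Gm12250, belong to the IRG family, and the first 2 are near-identical copies. The response element core was in a window of 10 of the 11 GTPase genes that had one (90.9%), a larger share than in the interferon list. No test of the difference between these lists was made.

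**Figure D3:**
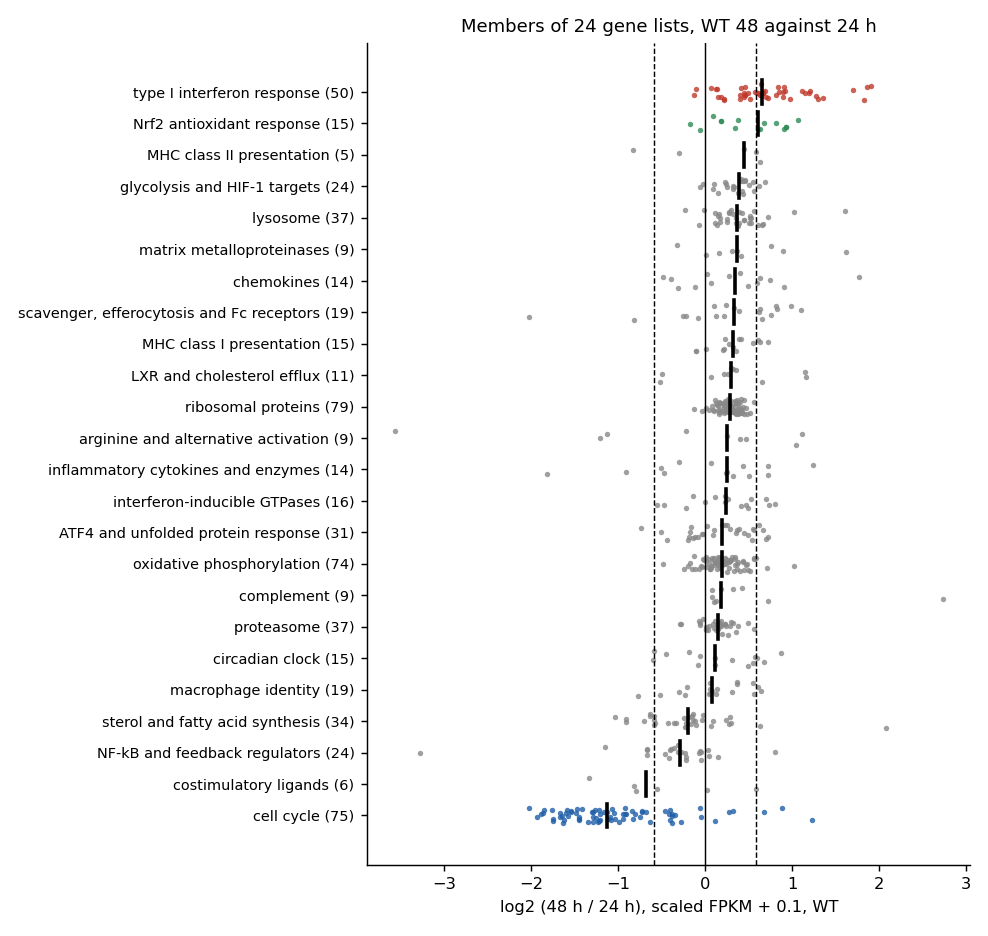
Log2 change of scaled FPKM from 24 to 48 h in WT macrophages (horizontal axis) for each analyzed member of 24 gene lists, with the number of members in parentheses. Dots are genes, thick bars are list medians and dashed lines mark 1.5-fold. The interferon response has the highest median (0.66) and the cell cycle the lowest (-1.13).

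Of the Nrf2 antioxidant response, 8 of 15 genes were higher. Nrf2 is the factor that oxidants and electrophiles release from Keap1, and its targets detoxify quinones, heme and peroxides. None of the 15 was lower, and their median log2 change was 0.61. Most are highly expressed, and highly expressed genes were slightly higher in general (median log2 change 0.10 in the tenth of genes with the most reads). After correction for expression level 4 of the 15 were higher and the median was 0.50, and with the values as deposited 5 were higher.

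Nqo1, the quinone reductase, was at 159, 139, 161 and 338 over the WT course, which was 2.10-fold higher at 48 than at 24 h (1.55 to 2.87). Hmox1, heme oxygenase 1, was at 2357, 1720, 2427 and 4568, or 1.88-fold (1.74 to 2.04). The ferritin chains Fth1 and Ftl1, which store iron, went from 14037 to 26793 and from 10038 to 19087, and the peroxiredoxin Prdx1 from 2576 to 4552. Ferritin genes have many processed copies, so their reads could be split in counting. In these 5 the values at 0 and 24 h lay within 1.5-fold and 48 h stood above them. Srxn1, which repairs peroxiredoxins, Gclm, the glutathione synthesis modifier, and the heme transporter Slc48a1 went from 650 to 1039, 645 to 985 and 866 to 1347. Nfe2l2 itself, which encodes Nrf2, had a log2 change of -0.17.

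Of 24 NF-kB and feedback regulators, 5 were lower (20.8%, against 9.71% of all genes analyzed) and 1 was higher (4.17%, against 8.23%). The other 18 stayed within 1.5-fold. The log2 change was below 0 in 20 of them, with a median of -0.29. Rel, a subunit induced on activation, was at 66.4, 59.5, 72.0 and 32.3, or 2.22-fold lower at 48 than at 24 h (1.29 to 4.01). Nfkb2, the precursor of p52, went from 516 to 325 and its partner Bcl3 from 299.5 to 189, both back towards their 6 h values of 309 and 156. Nfkbid was lower as well (132 and 83.7), and the phosphatase gene Dusp2 went from 75 to 6 reads. Rela and the inhibitor Nfkbia, at log2 0.05 and 0.15, stayed within 1.5-fold. Dusp4, a phosphatase of MAP kinases, was higher, from 327 to 570.

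Cytokine and chemokine genes were divided. Nos2, the inducible nitric oxide synthase, was at 11.9, 105, 115 and 273, which was 2.36-fold higher at 48 than at 24 h (1.90 to 2.95). Il1b, by contrast, was at 46.2, 162, 594 and 428 and Tnf at 508, 631, 468 and 491. Il1rn, the antagonist of the IL-1 receptor, went from 675 to 1111 and Il1a from 28.9 to 47.7, the last from 95 and 125 reads. Osm, oncostatin M, was lower, at 87.3 and 24.8 or 3.51-fold (1.77 to 7.66). Of the 14 cytokines and enzymes analyzed, 3 were higher and 2 lower, the other being Il18 with 59 and 25 reads.

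Of 14 chemokines, 5 were higher and none was lower, with a median log2 change of 0.34, and 3 were higher both after correction for expression level and with the values as deposited. After correction for gene length the median was 0.18. Cxcl3, a neutrophil attractant, was at 177, 342, 532 and 999.9, and Ccl6 went from 1013 to 1708. The monocyte attractant Ccl2 was at 2415, 1846, 1214 and 1843, so 48 h was a return to the 6 h level. Ccl12, a related monocyte attractant, had a similar course at 245, 280, 67.5 and 230, from 60 and 163 reads at 24 and 48 h. The interferon-induced Cxcl10 was at 74.6, 341, 220 and 157, unlike the antiviral genes.

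Of 9 analyzed genes of arginine metabolism and alternative activation, 2 were higher and 3 lower. The arginine transporter Slc7a2 went from 11.1 to 23.1, with 143 and 237 reads. Odc1, which makes the polyamine putrescine from ornithine, went from 281 to 129. Ass1, which recycles citrulline, was at 1202 and 1663 (log2 0.47).

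Of 34 genes of sterol and fatty acid synthesis, 9 were lower and 2 higher, with a median log2 change of -0.20, and 6 and 2 passed after correction for expression level. Fasn, the fatty acid synthase, went from 56.6 to 30.1, and Insig1, which retains the sterol sensor, from 205 to 132. Acss2, which makes acetyl-CoA from acetate, was at 12.6, 18.3, 17.8 and 75.9, the largest increase of the list at 4.26-fold (2.31 to 8.37). Of 11 genes of the liver X receptor and cholesterol efflux, 3 were higher (Lpl, Cd5l and Mylip) and none was lower. The log2 change was above 0 in 9 of the 11, with a median of 0.30. With the values as deposited 2 were higher and 2 lower, and after correction for expression level 3 and 1. Lpl, lipoprotein lipase, was at 1317, 890, 981 and 2176, or 2.22-fold higher (2.06 to 2.39). Cd5l, a target of the liver X receptor, went from 46.8 to 105, whereas the efflux pump Abca1 was at 195, 124, 422 and 299.95.

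Mfge8, the bridge between apoptotic cells and phagocytes, was at 185, 168, 264 and 568, 2.15-fold higher at 48 than at 24 h (1.75 to 2.65). The scavenger receptors Marco (1943 and 3440) and Cd36 (611 and 1036), the Fc receptors Fcgr4 (248 and 438) and Fcgr1 (353 and 544), and Axl, Gas6 and Clec7a were higher. Mrc1, the mannose receptor, was at 1077, 645, 740 and 421 and Cd163 went from 104 to 20 reads, and both were lower. Of the 19 analyzed, 8 were thus higher and 2 lower, with a median of 0.34. With the values as deposited 5 were higher, and Fcgr1, Gas6 and Clec7a were within 1.5-fold.

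Of 37 lysosomal genes, 34 had a log2 change above 0 and 6 passed 1.5-fold, with a median of 0.37, which was 0.24 after correction for expression level, when 3 passed, as with the values as deposited. Atp6v0d2, a subunit of the proton pump, was at 8.51 at 0 h, 18.7 at 24 h and 57.1 at 48 h, from 78 and 190 reads at 24 and 48 h. The cathepsin Ctsk went from 67.9 to 138, and the abundant Ctsd and Psap from 5838 to 9214 and from 4992 to 7928. Genes of glycolysis and HIF-1 targets had a median of 0.39, which was 0.18 after the correction. Of these 24, the glycolytic enzyme gene Pfkp and the HIF-1 target Egln3 were higher (8.33%, near the 8.23% of all genes analyzed), and neither with the values as deposited. Ribosomal protein genes had a median of 0.29 and none of 79 passed. Costimulatory ligands were lower in 3 of 6 cases, Icosl (42.1 and 16.7), Cd40 (51.6 and 29.3) and Cd80 (111 and 63.8), while Cd274, the inhibitory ligand PD-L1, was at 529.9 and 796, just past 1.5-fold. With the values as deposited, size factors from the WT libraries, or correction for expression level or gene length, Cd274 did not pass.

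The remaining lists differed in their share of higher genes, beside 8.23% of all genes analyzed. It was 33.3% among metalloproteinases and their inhibitors, 22.2% in complement and 20% in class I presentation. Among ATF4 and unfolded protein response genes it was 12.9%, in oxidative phosphorylation 2.70% and in the proteasome 0%. Of 15 class I presentation genes 3 were higher, with H2-T23, Tapbp and H2-D1 at log2 0.73, 0.63 and 0.61, and 1 was after correction for expression level. Of class II genes 5 of 11 could be analyzed, of which H2-DMb1 was higher and Cd74 lower. H2-DMb1 did not pass with the values as deposited or after correction for gene length. Of the 9 genes of metalloproteinases and their inhibitors 3 were higher and none lower, with a median of 0.37. Mmp12, an elastase of macrophages, went from 775 to 1443, Mmp13 from 256 to 433 and the inhibitor Timp1 from 25.1 to 77.6, the last from 37 and 91 reads. Of 9 complement genes 2 were higher and none lower, with a median of 0.19, and Cfb went from 555 to 915, although it shares 2246 exon bases with a read-through gene on the same strand. ATF4 and unfolded protein response genes had 4 of 31 higher and 1 lower, oxidative phosphorylation 2 of 74 higher and the proteasome none of 37.

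Of 15 clock genes, 3 were higher (20%, against 8.23% of all genes analyzed) and 1 lower (6.67%, against 9.71%), with a median log2 change of 0.12. With the values as deposited 1 clock gene was higher and 2 were lower. Bhlhe41, a repressor of Clock and Bmal1 targets, was at 111, 99.7, 129 and 237, or 1.84-fold higher at 48 than at 24 h (1.54 to 2.19). Dbp and Cry2 were higher and Nfil3 lower from 128 to 331 reads each at 24 h, with intervals that include 1. Per1 was at 61.6 and 92.0, Per2 at 10.4 and 15.2, Cry1 at 53.5 and 35.7, Nr1d1 at 26.2 and 37.0 and Nr1d2 at 95.4 and 90.2, all within 1.5-fold. Of 19 macrophage identity genes 2 were higher and 1 lower, with a median of 0.08. Of the genes the study turned to, Csf1r was at 2443 and 2539, Hif1a at 481 and 461 and Mmp9 at 2047 and 2544, whereas the fractalkine receptor Cx3cr1 was lower, at 51.5, 60.8, 111 and 65.6 at 0, 6, 24 and 48 h.

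The defining markers of macrophages were present in both libraries, none of the 10 at 0, and their summed scaled FPKM was 30509 at 24 h and 42349 at 48 h. Markers of T, NK, B, mast and erythroid cells summed to at most 37.0 at 48 h, and the T cell markers Cd3e and Cd3g, all 5 NK cell markers and all 5 erythroid markers were at 0 in both libraries. Stromal cell markers moved: none of 7 was at 0, and their sum was 690 at 24 h and 1366 at 48 h. Of the 7, 5 were higher, beside 8.23% of all genes analyzed, among them the collagens Col1a1 (242 and 525) and Col1a2 (131 and 292). Lum, also among the 5, had 15 and 21 reads and was too low to be analyzed. Pdgfrb was lower, with 134 and 67 reads. In BmalKO cells the sum of the stromal markers was 430 and 780. Neutrophil markers moved in both directions, as S100a8 went from 429 to 910, S100a9 from 148 to 10.1, Ltf from 80 to 0 reads and Ngp from 33 to 0, while Elane, Mpo and Retnlg were at 0 in both. Of the dendritic cell markers, Itgax, the integrin CD11c, went from 17.6 to 65.1, and Flt3 and Cd209a were at 0 in both. The 6 osteoclast markers summed to 376 and 604, from Acp5 and Ctsk in the main, while Calcr, Ocstamp and Dcstamp were at 0 in both.

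By size alone, the 15 genes with the highest and the 15 with the lowest change rested on few reads. In the library where each was higher, the 15 lowest had 36 to 129 reads (median 80) and the 15 highest 42 to 462 (median 73). The counting interval was clear of 1 in 12 of the lowest and 14 of the highest, and as many had the same direction in BmalKO cells, 7 and 9 of them past 1.5-fold. Ltf, lactoferrin, and the zinc finger gene Zfp39 were at 0 at 48 h from 80 and 36 reads at 24 h. A floor of 3 reads in place of 0 put them 21.2-fold and 9.56-fold lower. That floor takes each read as a separate fragment, so these values are no bounds. With the reads divided by 6, the lower limit for Ltf was 2.50-fold. S100a9, a calcium-binding protein of neutrophils and monocytes, and the chitinase-like Chil3 were lower in BmalKO cells as well, with S100a9 at 371 and 9.00 and Chil3 at 86.9 and 16.3 there. The rest of the 15 lowest were Tex9, Usp2, Dusp2, Zeb1, Gm7694, Zbtbd6, P2ry12, Ccdc39, Pradc1, F730043M19Rik and Eldr, with 6 to 12 reads at 48 h except Tex9 with 3. Beside these stand the neutrophil markers above, and their part in the result was not tested.

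Of the 15 highest, Ctgf, a secreted matrix protein and target of the YAP coactivator, rested on the most reads, 86 and 462. It was at 32.1, 34.3, 21.4 and 145 over the WT course, which was 6.74-fold higher at 48 than at 24 h (3.81 to 12.8), and at 20.7 and 48.8 in BmalKO cells. Of its exon bases 22.9% are shared with another gene model, Gm15270. The related Cyr61 went from 7.68 to 44.5 and the complement inhibitor Serping1 from 9.24 to 62.1. Stromal markers moved with these 3, as given above, and their part was not tested. The other 12 were Tcf7l1, Zfp618, Lat, Zfp532, Serpinb6b, Tacc2, Hectd2, Tgfb3, Rpp38, Myrf, Susd2 and Dab2ip. They had 0 to 42 reads at 24 h, and apart from Tcf7l1, which had none, the widest interval was 1.86 to 561 for Zfp618.

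To see which large differences were well counted, genes with a mean of at least 600 reads were taken, a limit chosen after the data were seen. Of these 4360 genes, 174 were higher and 125 lower, so 58.2% of the calls were higher against 45.9% over all genes analyzed. The 15 lowest were Kif11, Cenpe, Prc1, Anln, Cenpf, Sesn1, Slfn9, Foxm1, Smc2, Clspn, Kif20a, Rrm2, Kifc1, Iqgap3 and Ccna2, of which 8 were on the cell cycle list. Kif20a shares 32.3% of its exon bases with Cdc23, so its own value is uncertain. Sesn1, a stress-induced inhibitor of growth signaling, was at 276, 259, 273 and 94.8, and in BmalKO cells its log2 change was -0.35.

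The 15 highest well-counted genes were Ifit3, Stfa3, Ifit2, Folr2, Col18a1, Calb2, Slfn4, H2-T24, Nos2, Ccnd1, Usp18, St3gal5, Ifit1, Col1a2 and Lpl. Folr2, a folate receptor of tissue macrophages, was at 254, 251, 243 and 632, or 2.59-fold higher at 48 than at 24 h (1.95 to 3.48). Stfa3, a stefin that inhibits cathepsins and has near-identical copies, was at 785, 557, 522 and 1705, and Calb2, calretinin, at 634, 524, 723 and 1798. Col18a1 (164 and 418) is a matrix gene, and Col1a2 is itself one of the stromal markers. All 30 had counting intervals clear of 1.

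**Figure D4:**
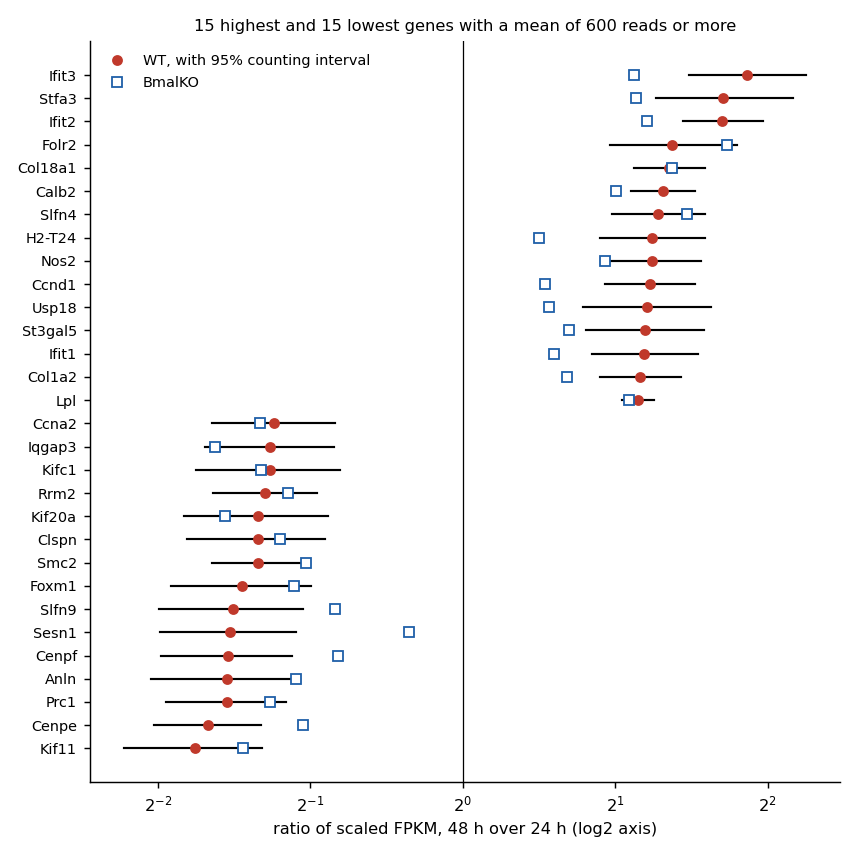
Ratio of scaled FPKM at 48 over 24 h (horizontal axis, log2 scale) for the 15 highest and 15 lowest genes with a mean of at least 600 reads in the WT pair. Filled circles with 95% counting intervals are WT, open squares BmalKO, 1 library per condition. All 30 genes lie on the same side of 1 in both pairs, and interferon genes such as Ifit3, Ifit1 and Usp18 lie closer to 1 in BmalKO.

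The full WT course places the 24 to 48 h changes against the 0 h level. Of the 863 genes that were higher, 710 (82.3%) had their highest WT value at 48 h, 521 were at least 1.5-fold above 0 h, 319 within 1.5-fold of it and 23 at least 1.5-fold below. Of the 1018 that were lower, 940 (92.3%) had their lowest WT value at 48 h, 755 were at least 1.5-fold below 0 h and 13 above. Over all genes analyzed, 33.8% had their highest and 31.6% their lowest value at 48 h, and since the genes were chosen on a high or low 48 h value, the shares at 48 h are largely fixed by that choice. Nfkb2, Bcl3 and Cx3cr1 were among those that came down from a maximum at 6 or 24 h, and Ccl2 and Ccnd1 among those that came back from a minimum at 24 h.

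The BmalKO libraries gave the same comparison in other cells. There 731 genes (6.97%) were higher and 947 (9.03%) lower from 24 to 48 h. Of the WT genes, 334 were higher and 438 lower in both pairs, which was 38.7% and 43.0% of the WT calls and 45.7% and 46.3% of the BmalKO calls, while 36 and 32 passed 1.5-fold in opposite directions. Across the 10487 genes the log2 changes of both pairs correlated at r = 0.54 (Spearman's rho 0.52), and across the 4360 well-counted genes at r = 0.75 (rho 0.70). These describe genes, which are not independent replicates, and the pairs share the read mapping and gene models but no library. Of the well-counted genes, 170 of the 174 that were higher in WT cells had a log2 change above 0 in BmalKO cells. Of the 125 that were lower, 122 had one below 0. The median log2 change of all 10487 genes in BmalKO cells was -0.02, and the share of the 4360 above or below 0 there was not counted.

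**Figure D5:**
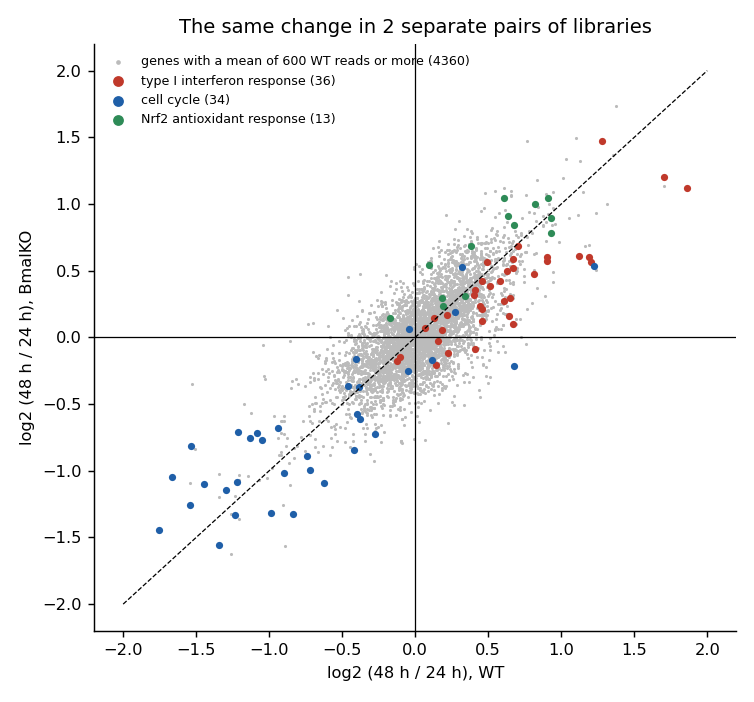
Log2 change from 24 to 48 h in BmalKO cells (vertical axis) against WT cells (horizontal axis) for the 4360 genes with a mean of at least 600 WT reads, with 3 gene lists in color and the line of equal change dashed. The cell cycle genes lie around the line, the Nrf2 genes near or above it and most interferon genes below it.

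By list, 57 of 75 cell cycle genes were lower in BmalKO cells, with a median log2 change of -1.02 beside -1.13 in WT cells, and 54 were lower in both. Within it, the mitosis genes had a median of -1.12 beside -1.45 and the replication genes one of -0.90 beside -0.91. The Nrf2 genes had a median of 0.78 beside 0.61, with the 8 WT genes higher in both pairs. The interferon response had 13 of 50 genes higher in BmalKO cells, all 13 of them higher in WT cells too, and a median of 0.38 beside 0.66. In 46 of its 50 genes the change was larger in WT cells. Ifit3 was at 48.5, 257, 259 and 563 in BmalKO cells at 0, 6, 24 and 48 h, so its 48 h level was near that of WT cells (508) and its 24 h level was not (140). Slfn1 (144 and 185 in BmalKO cells) and Isg15 (400 and 652) showed the same, whereas Isg20 (38.2 and 127) had nearly the WT values. Ribosomal protein genes had a median of 0.57 beside 0.29, with 38 of 79 higher. With 1 library per condition, whether these differences between the genotypes exceed the spread between cultures was not tested.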

How the data were processed

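PolyA RNA of WT and BmalKO BMDMs at 0, 6, 24 and 48 h after KLA was sequenced in paired ends, 1 library per condition, and the authors mapped it to mm9 by STAR and used HOMER to count tags in RefSeq exons of either strand, with at most 3 tags per position and 1 transcript kept per gene. Tool versions are not given in the sources used here. The FPKM values they deposited are per kb and per 10000000 reads, with exon length, another deposited column, beside them. Of 12 value columns, 4 matched no sample and were not used, and 1 broken line was left out. The ChIP-seq samples were not analysed here.

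Reads were recovered from the deposited FPKM and length (100% of low values were whole multiples of 1 read, within rounding and 1% of a read), to give depth and intervals. Median-of-ratios size factors over the 8 libraries (0.986 for WT at 24 h and 0.918 at 48 h) scaled the FPKM. Genes with at least 100 reads after scaling at 1 or more WT times were analyzed. Log2 changes used a pseudocount of 0.1, which understates the change of low genes. With 1 library a side no test was made, and lists are described by counts and medians beside those of all genes analyzed. Intervals are exact binomial (Clopper-Pearson, 95%) on reads divided by 6.

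Named genes were the 15 highest and 15 lowest, up to 6 members with the largest change per list and role, members against their list's direction, and genes the study names. Genes outside this rule, such as Top2a, Mcm2 or Tnf, were named after their values were seen. The comparison, the lists and this rule were chosen with earlier results of these data known. The alternatives were other scalings, pseudocounts, filters and thresholds, corrections for expression level and gene length (lowess, fraction 0.3), and, added after the data were seen, a mean of at least 600 reads. Recovery of reads and calls was tested on simulated data with independent reads and large changes in genes with many reads. That setting does not cover repeated reads, changes near 1.5-fold or genes with few reads. Promoter windows are RefSeq's for GRCm38.p6, matched by RefSeq transcript or symbol. Exon overlaps of at least 200 bases were looked up in GENCODE vM1. Scripts ran in Python 3.11.15 with scipy 1.17.1, pandas 2.3.3, numpy 2.4.6, statsmodels 0.14.6 and matplotlib 3.10.9. Values of a few listed genes are not reported here.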

Additional observations from a re-analysis of the deposited data

Results flagged for a closer look

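Gm7694 and Tcf7l1 were among the 30 genes with the largest changes, and their change from 24 to 48 h went in opposite directions in WT and BmalKO cells. Gm7694 had a log2 change of -3.02 in WT cells, from 86 to 8 reads, and of 0.63 in BmalKO cells, from 74 to 59 reads in a shallower library. Tcf7l1, a transcription factor of the Wnt pathway, had 0 reads at 24 h and 61 at 48 h in WT cells, and 7 and 2 in BmalKO cells. Its log2 change of 7.35 depends on the pseudocount and is no bound. A floor of 3 reads in place of 0 put Tcf7l1 25.5-fold higher in WT cells. That floor takes each read as a separate fragment, so this value is no bound either. In BmalKO cells the log2 change of Tcf7l1 was -0.74. These differences between the genotypes were not tested.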

How the results depend on the processing

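No paired analysis was possible because each condition had 1 library. The numbers of genes higher and lower depended on the filter and the threshold. They were 2082 and 2023 with a mean scaled FPKM of at least 1, 2584 and 2701 with no filter on low values, 245 and 404 at 2-fold, and 174 and 125 with a mean of at least 600 reads, and 570 genes were higher where scaled FPKM times length had to reach 100. Relative to all genes, the median log2 change of class II presentation turned from 0.44 to -0.24 with a mean scaled FPKM of at least 1 and -0.32 with no filter, that of the cell cycle -0.84 with a mean of at least 600 reads, and those of glycolysis and the lysosome 0.18 and 0.24 after correction for expression level. After correction for gene length, those of ribosomal proteins and the proteasome were 0.12 and 0.058, and that of oxidative phosphorylation turned from 0.18 to -0.00075. The same correction moved the chemokines from 0.33 to 0.18, complement from 0.17 to 0.095 and the clock from 0.10 to 0.23. Correction for expression level moved class II presentation to 0.22, complement to 0.10 and metalloproteinases from 0.35 to 0.20. Cytokines and enzymes moved from 0.23 to 0.065 with a mean scaled FPKM of at least 1 and to 0.098 with no filter, and complement to 0.11 with a mean of at least 600 reads. In all, 7 of the 288 list medians under alternative settings changed sign. Beside class II presentation and oxidative phosphorylation, these were macrophage identity, from 0.064 to -0.0084 after correction for expression level, and, where a mean of at least 600 reads left few members, costimulatory ligands, from -0.69 to 0.54 with 1 gene, arginine metabolism, from 0.23 to -0.26 with 3, and the clock, from 0.10 to -0.12 with 4. With the values as deposited the genes higher were 2 of 31 rather than 4 in the ATF4 list, 0 of 24 rather than 2 in glycolysis, 1 of 15 rather than 3 in class I presentation and 1 of 15 rather than 3 in the clock. Depth limits genes with under 100 reads most, since a few fragments decide their ratio.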

Other observations

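Rn45s, the ribosomal RNA precursor, had more reads than any of the genes named above, and over the WT course it was at 14488, 7355, 22139 and 37680 scaled FPKM. In BmalKO cells its log2 change from 24 to 48 h was 1.47, beside 0.77 in WT cells. It was named after its values were seen, and whether it moved with the results above was not tested.

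The CACGTG E-box, the sequence to which Bmal1 and Clock bind, was in a promoter window of 11 of 27 lysosomal genes (40.7%) and of 12.3% of all genes analyzed with a window. Lysosomal genes with and without it had median log2 changes of 0.33 and 0.38 from 24 to 48 h in WT cells. Other factors also bind this sequence, and a match describes letters only.

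The other 2 motifs searched were these. Part of the NF-kB site, GGGANNTTC on both strands, was in a promoter window of 3 of 20 NF-kB regulators (15%) and 4 of 8 chemokines (50%), against 4.38% of all genes analyzed with a window and 3.94% of all windows. The chemokines with it had a median log2 change of -0.35 and those without it 0.52. A sterol regulatory element, TCACNCCAC on both strands, was in a window of none of 24 sterol and fatty acid synthesis genes, of 1.32% of the genes analyzed and of 1.24% of all windows, which says only that these letters are not in those windows.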
